A study of Homo sapiens with 6 samples.

Results

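The genes described here are 10 cytokine and TNF-superfamily ligand genes, IL1A, IL1B, IL6, IL11, IL24, LIF, CSF2, CSF3, TNFSF15 and LTB, out of 17064 genes listed for MDA-MB-231 breast cancer cells. They were selected by name and on their measured values, the FPKM and expected counts of all 6 libraries, so their levels and differences between groups are given as a description and not as evidence for a difference. FPKM is a level scaled to transcript length and library depth, and an expected count is the estimated number of reads of a gene.

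MDA-MB-231 is an established triple-negative breast cancer line. RNA was sequenced from cells in which the kinase MRCKα (CDC42BPA) or MRCKβ (CDC42BPB), or both, had been targeted with lentiCRISPRv2. MRCKα KO and MRCKβ KO were measured in 1 library each, the double knockout (DKO) in 2 libraries made with different guides against both genes, and the empty vector control in 2 libraries from separate transductions. The edited cells were selected pools without clone picking, and all groups carry the integrated vector. Differences between single libraries therefore have no replicate check in the single KO cells, and guide and replicate cannot be told apart in DKO. The total of expected counts lay between 10349898 and 10657857 per library.

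Tumor cells release cytokines that act on themselves and on neighbouring stromal and immune cells. Interleukin 1 receptors signal to the NF-κB and AP-1 transcription factors, which in turn drive many cytokine genes, while IL-6, IL-11 and LIF share a receptor subunit that activates STAT3. CSF2 and CSF3 direct the growth of myeloid cells, and ligands of the TNF superfamily act on receptors that recruit TRAF adaptors.

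The libraries were first checked against their labels. CDC42BPA had an FPKM of 36.4 and 23.3 in vector 1 and vector 2, 28.3 and 26.1 in DKO 1 and DKO 2, then 29.4 in MRCKα KO and 34.9 in MRCKβ KO. CDC42BPB had 30.3 and 29.1 in vector, 23.4 and 23.5 in DKO, then 27.3 in MRCKα KO and 25.7 in MRCKβ KO. A frameshift made by Cas9 need not lower the transcript, so transcript levels are no test of the labels here. CDC42BPA in MRCKα KO and in DKO lay between the vector libraries. CDC42BPB lay below both vector libraries in MRCKβ KO and DKO, and also in MRCKα KO. At the protein level, the study reports that gene deletion was very efficient. It also reports that MRCKβ protein rose slightly but significantly in MRCKα KO. All 5 genes chosen as high in this line (VIM, CD44, KRT18, KRT8 and CAV1) were abundant, with a summed FPKM of 2212 to 2805 per library and VIM the most abundant. The 5 genes chosen as low (ESR1, PGR, ERBB2, EPCAM and CDH1) summed to 15.2 to 19.6 FPKM, most of it ERBB2.

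The MRCKα KO library stood apart in CDKN2A, MTAP and LIN28B, while SOX2 and the summed HEK293T genes were highest in DKO 2. CDKN2A, which is deleted in this line, had 0 counts in the 5 other libraries and 19 in MRCKα KO, and MTAP, its deleted neighbour, had 20.4 counts there and 2.89 to 10.7 elsewhere. Of 4 HEK293T genes, LIN28B had 10 counts in MRCKα KO and 0 or 1 elsewhere. The summed FPKM of the HEK293T genes was 0.66 and 0.83 in vector, 0.96 and 1.87 in DKO, then 1.05 in MRCKα KO and 0.92 in MRCKβ KO, with SOX2 the most abundant by mean FPKM, at 0 and 5 counts in vector, 16 and 31.6 in DKO, then 10 in MRCKα KO and 6 in MRCKβ KO. LIN28A had more counts than SOX2 in vector, in MRCKβ KO and, narrowly, in MRCKα KO, with 10.7 to 16.1 over the 6 libraries. Of 8 leukocyte markers measured, 4 reached 10 counts in any library, CD3E and CD79A had at most 1 count, ITGAM had 4 and 9 counts in DKO and 0 in the other libraries, and the list summed to 7.83 to 10.1 FPKM, with LYZ the most abundant. The 6 fibroblast markers summed to 11.2 FPKM in vector 1 and 3.75 to 7.28 in the other libraries, led by PDGFRB in mean FPKM and by COL1A1 in vector 2 and DKO 2, whereas DCN and LUM had at most 6 counts. The part of these transcripts in the levels of the cytokine genes was not tested.

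Promoters of 8 of the 10 genes were matched in RefSeq (GRCh38.p14), and the 250 bases before the most upstream listed start of each were searched on both strands for 4 motifs, whose matches in these genes did not overlap. The starts are those of RefSeq and need not match the ends of the gene spans given below, which are from GENCODE: the windows of IL6 and TNFSF15 lie inside these spans, and those of IL1A, IL1B and LTB lie partly inside. Shares of all promoters are for windows of the same length. The NF-κB consensus was found in IL6 and LTB, 2 of the 8, and in 9.96% of all 35116 promoters. The AP-1 motif TGANTCA was found in IL1A, IL11 and TNFSF15, 3 of the 8, and in 6.57% of all promoters. The C/EBP pattern TTNNGNAA was found in IL1A, IL1B, IL6 and TNFSF15 and in 33.2% of all promoters, and TATAAA in IL1A and in 10.7%. The promoters of IL24 and CSF2 hold none of these letters in this window. The 5 promoters with an NF-κB or AP-1 match follow, 5′ to 3′ on the strand of the gene and ending at the base before the start, because these factors are the ones most often named as drivers of cytokine genes. Capitals mark the NF-κB consensus in IL6 and LTB and TGANTCA in IL1A, IL11 and TNFSF15.
IL6, chr7:22726950-22727199, plus strand: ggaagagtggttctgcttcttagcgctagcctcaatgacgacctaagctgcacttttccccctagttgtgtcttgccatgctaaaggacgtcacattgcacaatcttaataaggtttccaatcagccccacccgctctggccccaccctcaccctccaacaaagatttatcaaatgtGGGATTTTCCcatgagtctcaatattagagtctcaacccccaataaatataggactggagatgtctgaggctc
LTB, chr6:31582426-31582675, minus strand: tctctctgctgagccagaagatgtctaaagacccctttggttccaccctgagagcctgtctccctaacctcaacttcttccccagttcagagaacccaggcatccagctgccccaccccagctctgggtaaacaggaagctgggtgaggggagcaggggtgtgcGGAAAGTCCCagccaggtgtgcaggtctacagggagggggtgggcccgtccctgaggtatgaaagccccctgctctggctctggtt
IL1A, chr2:112784494-112784743, minus strand: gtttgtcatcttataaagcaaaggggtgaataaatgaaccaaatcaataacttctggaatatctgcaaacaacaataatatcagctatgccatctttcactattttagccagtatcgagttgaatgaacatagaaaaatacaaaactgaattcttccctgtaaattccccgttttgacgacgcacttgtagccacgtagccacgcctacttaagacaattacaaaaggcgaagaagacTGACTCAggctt
IL11, chr19:55370464-55370713, minus strand: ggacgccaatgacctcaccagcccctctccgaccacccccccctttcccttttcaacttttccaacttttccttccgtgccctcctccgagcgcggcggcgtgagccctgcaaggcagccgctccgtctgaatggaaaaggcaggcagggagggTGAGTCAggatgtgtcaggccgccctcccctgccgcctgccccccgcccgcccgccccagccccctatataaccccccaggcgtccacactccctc
TNFSF15, chr9:114792531-114792780, minus strand: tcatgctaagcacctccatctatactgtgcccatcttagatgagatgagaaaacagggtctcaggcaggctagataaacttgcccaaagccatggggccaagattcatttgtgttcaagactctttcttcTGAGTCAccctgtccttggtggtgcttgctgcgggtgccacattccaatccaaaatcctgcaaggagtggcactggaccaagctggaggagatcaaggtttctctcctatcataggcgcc
The NF-κB match started 73 bases before the start in IL6 and 86 bases before it in LTB, where it lay on the opposite strand. The TGANTCA match started 12 bases before the start in IL1A, 96 in IL11 and 120 in TNFSF15. These matches are letters in a window and were not tested as sites.

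The levels of the 10 genes spanned more than 2 orders of magnitude, with IL11 far above the rest. The mean FPKM over the 6 libraries was 99.6 for IL11, 16.0 for IL24, 13.2 for LIF, 10.9 for TNFSF15, 7.80 for IL1B, 6.40 for IL6, 6.04 for CSF2, 2.01 for IL1A, 0.758 for LTB and 0.392 for CSF3. IL11 made up between 53.1% (DKO 2) and 70.2% (vector 2) of the summed FPKM of the 10 genes. IL11 lay above the others in every library. The ranges over libraries of IL24, LIF, TNFSF15 and IL1B overlapped one another, and those of IL6, CSF2 and IL1A overlapped TNFSF15 and IL1B, so the order of neighbours among these 7 genes is not beyond the spread between libraries. LTB and CSF3 overlapped each other as well as the lowest values of IL1A. Without IL11, the other 9 genes summed to 41.9 and 59.0 FPKM in vector, 72.8 and 97.6 in DKO, then 47.7 in MRCKα KO and 61.8 in MRCKβ KO.

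**Figure D1:**
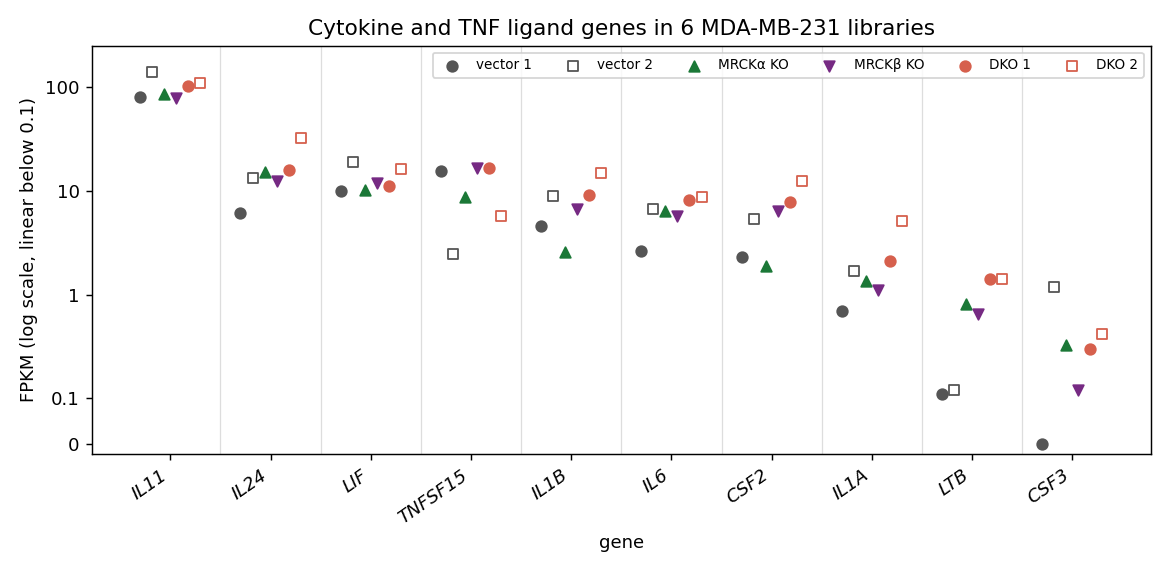
FPKM (log scale, linear below 0.1) of the 10 genes, ordered by mean level, with 1 point per library and no averaging. Both DKO points lie above both vector points for IL24, IL1B, IL6, CSF2, IL1A and LTB, and the vector points of TNFSF15 are the farthest apart of the genes with counts in both vector libraries.

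The vector libraries themselves differed in these genes. Between them, 5 of the 9 genes tested, and CSF3 as well, were more than 2-fold apart in FPKM, where 7.19% of all 13123 tested genes were. Vector 2 was higher than vector 1 in 9 of the 10 genes, against 49.2% of all tested genes, and DKO 2 was higher than DKO 1 in 8 of the 10, against 52.0%. TNFSF15 ran the other way in both groups. This spread sets how firmly any difference between DKO and vector can be stated for the list.

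Of the 10 genes, 9 passed the filter on low counts and were tested between DKO and vector with edgeR's quasi-likelihood test. At a Benjamini-Hochberg adjusted p under 0.05, 0 of the 9 were called, and 0 of 13123 genes (0.0%) were called in all. At an unadjusted p under 0.05, 4 of the 9 were higher in DKO and 0 lower, where 1.36% of all tested genes were higher, and 313 genes passed in either direction. Both numbers changed when 1 library was left out. With the replicate number added as a block, 796 genes passed in either direction. Of the tested members, all but IL11 and LIF were then higher in DKO at an unadjusted p under 0.05. DESeq2 called 4 genes and limma on FPKM called 0, none of them among the 10. Both DKO libraries lay above both vector libraries in 6 of the 9, against 17.0% of all tested genes, and below both in 0, against 12.3%. The genes were chosen with these values known, so nothing is read from these counts. The median log2 fold change was 0.79 over the 9 genes and -0.0024 over all tested genes, and LTB, which passed the filter only through DKO, does not move that median while it is above it.

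The interleukin 1 genes encode the inflammatory ligands IL-1α, which is active as made and is released by damaged cells, and IL-1β, which needs cleavage. They lie side by side on the minus strand of chromosome 2 (GENCODE v29, GRCh38), IL1A at chr2:112773915-112784590 and IL1B at chr2:112829751-112836903. IL1A (gene ID 3552) had an FPKM of 0.70 and 1.70 in vector, 2.10 in DKO 1 and 5.09 in DKO 2, then 1.34 in MRCKα KO and 1.11 in MRCKβ KO. Both single KO libraries lay between the vector libraries, and both DKO libraries lay above them, DKO 2 more so than DKO 1. The count in DKO 1 was within counting error of vector 2, with a ratio of 1.24 scaled by library totals (95% exact interval 0.846 to 1.82). The DKO mean was 3.60 ± 2.11 and the vector mean 1.20 ± 0.71 (SD, n = 2 each). In the fit, the log2 fold change was 1.56 with an SE of 0.57, and it lay between 0.79 without DKO 2 and 2.34 without vector 2. The counts behind IL1A were low, 22 to 158 per library. In RNA of whole cultures, more cells making a transcript and more transcript per cell cannot be told apart.

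IL1B (gene ID 3553) had an FPKM of 4.61 and 8.98 in vector, 9.08 and 14.8 in DKO, then 2.60 in MRCKα KO and 6.71 in MRCKβ KO. DKO 1 was level with vector 2 and only DKO 2 stood clear of it. MRCKα KO was below both vector libraries, with 40 counts against 73 and 138; this is the library with CDKN2A counts, whose part was not tested. Its count relative to vector 1, scaled by library totals, was 0.563 with a 95% exact interval of 0.373 to 0.839, and relative to vector 2 it was 0.289 (0.198 to 0.414). These intervals cover counting error in the libraries compared and not the spread between cultures. The fitted log2 fold change in DKO was 0.79 with an SE of 0.38, and it lay between 0.39 without vector 1 and 1.35 without vector 2.

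Of the genes whose products signal through the receptor subunit encoded by IL6ST, IL6 alone had both DKO libraries above both vector libraries. IL6 (gene ID 3569, chr7:22725884-22732002), an inducer of the acute-phase response, had an FPKM of 2.64 and 6.74 in vector, 8.19 and 8.71 in DKO, then 6.41 in MRCKα KO and 5.69 in MRCKβ KO. Vector 1 was low, and the 5 other libraries lay between 5.69 and 8.71. Both DKO libraries were within counting error of vector 2, with count ratios of 1.17 (95% exact interval 0.872 to 1.58) and 1.26 (0.941 to 1.69). Its fitted log2 fold change was 0.74 with an SE of 0.41, and it lay between 0.26 without vector 1 and 1.44 without vector 2. The estimated transcript length of IL6 was 1400 bases in vector 1 and 1208 to 1266 bases in the other libraries, so that its FPKM differed more between libraries than its counts of 39.0 in vector 1 and 73.0 to 110 elsewhere. The promoter of IL6 shown above holds the NF-κB consensus.

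IL11 (gene ID 3589, chr19:55364389-55370463), a ligand linked to bone metastasis of breast cancer, had an FPKM of 80.7 and 139 in vector, 102 and 111 in DKO, then 85.5 in MRCKα KO and 79.4 in MRCKβ KO. Both DKO libraries lay between the vector libraries, and MRCKβ KO lay just under vector 1, within counting error of it (count ratio 0.984, 95% exact interval 0.924 to 1.05). With 2001 to 3424 counts per library, counting error is small here, and the vector libraries differed more from each other than the DKO libraries did. The fitted log2 fold change was -0.07 with an SE of 0.25. LIF (gene ID 3976, chr22:30240447-30246851) encodes a ligand that keeps mouse embryonic stem cells undifferentiated in culture. Its FPKM was 10.04 and 19.1 in vector, 11.3 and 16.4 in DKO, then 10.2 in MRCKα KO and 12.03 in MRCKβ KO. All 4 knockout libraries fell between the vector libraries, and the fitted log2 fold change was -0.10 with an SE of 0.33. The sign of both fold changes turned when vector 2 was left out, to 0.38 for IL11 and 0.44 for LIF.

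IL24 (gene ID 11009, chr1:206897443-206904139) encodes a cytokine of the interleukin 10 family that acts on epithelial cells through STAT3. Its FPKM was 6.07 and 13.4 in vector, 16.1 and 32.5 in DKO, then 15.4 in MRCKα KO and 12.5 in MRCKβ KO. MRCKα KO was above both vector libraries, yet by less than the vector libraries differed from each other, and DKO 1 was close to it. Both were within counting error of vector 2, with count ratios of 1.13 (95% exact interval 0.945 to 1.36) in MRCKα KO and 1.19 (0.998 to 1.43) in DKO 1. DKO 2 had about double the level of DKO 1, and the vector libraries were as far apart. For DKO, the fitted log2 fold change was 1.29 with an SE of 0.45, and it lay between 0.71 without DKO 2 and 2.00 without vector 2. IL24 was the only gene of the 10 called under any alternative fit, with an adjusted p of 0.0438 in edgeR when the replicate number was added as a block. Over all alternatives its adjusted p ranged from 0.0438 to 1.000.

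The colony-stimulating factors are made by stromal and tumor cells and act on myeloid precursors. CSF2 (gene ID 1437, chr5:132073790-132076170), which encodes GM-CSF, had an FPKM of 2.30 and 5.36 in vector, 7.77 and 12.5 in DKO, then 1.87 in MRCKα KO and 6.43 in MRCKβ KO. It was below both vector libraries in MRCKα KO and above both in MRCKβ KO and DKO. The MRCKα KO count was 15 against 19 and 43 in vector, and the ratio to vector 1 was 0.812 (95% exact interval 0.384 to 1.69), so the difference from vector 1 was within counting error. The MRCKβ KO count of 53 was likewise within counting error of vector 2, with a ratio of 1.20 (0.787 to 1.84), as was the DKO 1 count of 63, with a ratio of 1.45 (0.968 to 2.19). The fitted log2 fold change in DKO was 1.38 with an SE of 0.49, and 0.89 to 2.11 when 1 library was left out.

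CSF3 (gene ID 1440, chr17:40015361-40017813), which encodes G-CSF, was close to the limit of detection and was not tested. It had 0 and 18 counts in vector, 5 and 7 in DKO, then 5 in MRCKα KO and 2 in MRCKβ KO. The vector libraries were the extremes of the 6, and a library with 0 counts may have held up to 3. No direction can be given for CSF3 at this depth.

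The TNF-superfamily ligands on the list differed from each other. TNFSF15 (gene ID 9966, chr9:114784635-114806126), whose product TL1A costimulates T cells, had an FPKM of 15.5 and 2.45 in vector, 16.6 and 5.70 in DKO, then 8.69 in MRCKα KO and 16.6 in MRCKβ KO. Vector 1, MRCKβ KO and DKO 1 were high, and vector 2 and DKO 2 were low. MRCKβ KO was within counting error of vector 1, with a count ratio of 1.07 (0.989 to 1.17). The vector libraries were 6.31-fold apart and the DKO libraries 2.91-fold, on 172 to 1193 counts per library, so counting error is not the limit. Its log2 fold change was 0.30 with an SE of 0.82, and it ran from -0.68 without DKO 1 to 2.16 without vector 1. No direction in DKO can therefore be given for TNFSF15.

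LTB (gene ID 4050, chr6:31580525-31582522) encodes lymphotoxin β, which anchors lymphotoxin α at the cell surface. Each vector library held 1 count, at an FPKM of 0.11 and 0.12, and each DKO library 13 counts, at 1.43 and 1.42. MRCKα KO had 7 counts (FPKM 0.82) and MRCKβ KO 6 (0.65). All 4 knockout libraries were above both vector libraries, at a level where single reads count. The summed DKO counts were 26 against 2 in vector, a ratio of 13.0 after scaling by library totals with a 95% exact interval of 3.26 to 113. For the single knockouts the ratio to the summed vector counts was 7.09 (1.35 to 70.0) in MRCKα KO and 5.93 (1.06 to 60.1) in MRCKβ KO. Against vector 1 and vector 2 taken singly, it was 7.20 (0.924 to 324) and 6.99 (0.898 to 315) in MRCKα KO, and 6.01 (0.730 to 277) and 5.84 (0.709 to 269) in MRCKβ KO, so that each single knockout was within counting error of each vector library. These intervals cover counting error only. The fitted fold change of LTB depends on the prior count of the fit and is not given.

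**Figure D2:**
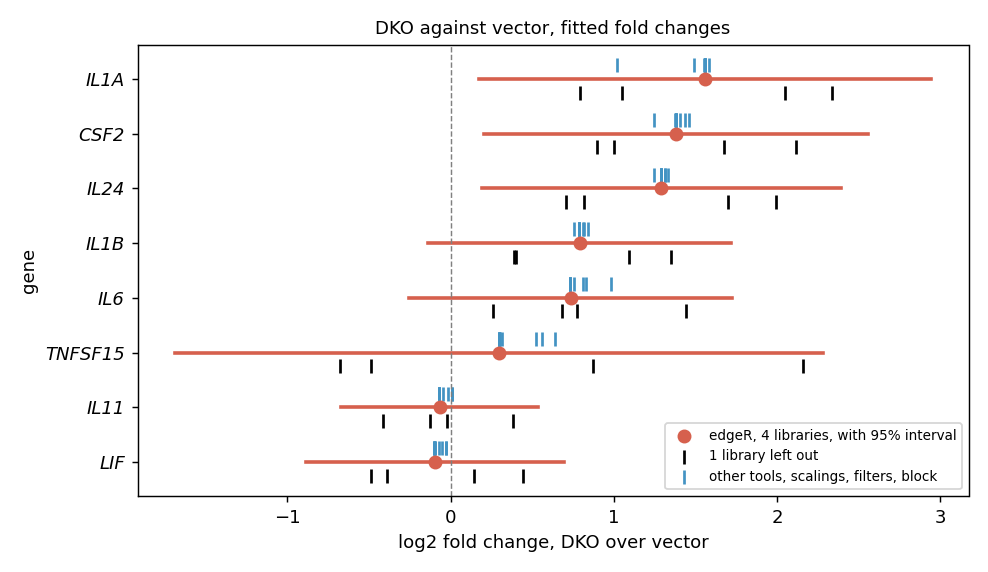
Fitted log2 fold change of DKO over vector for 8 genes (edgeR, point with 95% interval), with black ticks for fits without 1 library and blue ticks for other tools, scalings, filters and the replicate block; LTB and CSF3 are not drawn because of their low counts. The black ticks of TNFSF15, IL11 and LIF lie on both sides of 0, and those of IL1A, CSF2, IL24, IL1B and IL6 lie above it.

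Across the single knockouts, which share the vector libraries with DKO, the genes did not follow one pattern. Of the 9 tested genes, IL24 and LTB were above both vector libraries in MRCKα KO, where 32.4% of all tested genes were, and IL1B and CSF2 were below both, where 27.0% were. In MRCKβ KO, CSF2, TNFSF15 and LTB were above both vector libraries, against 30.1% of tested genes, and IL11 was below both, against 29.1%. These shares are what a single library gives in the tested genes at large.

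The fold rule of the study keeps genes within 2-fold between replicates and asks for a 2-fold change from the vector mean, and the study also left out genes of low expression. The rule was applied here with a pseudocount of 0.1, and the limit on low expression was set here at 10 counts in 1 of the libraries compared. Together these conditions left out 7 of the 10 genes in each single knockout and 6 in DKO. IL1A, IL6, IL24, CSF2, CSF3 and TNFSF15 were too far apart between the vector libraries, and LTB was left out of the single knockouts by this limit of 10 counts alone. The study kept LTB and lists it among its top up-regulated genes in MRCKα KO, MRCKβ KO and DKO. In MRCKα KO, 1 of the 3 genes kept, IL1B, was past 2-fold with a log2 ratio of -1.35, where 2.08% of 12336 genes were past it in either direction. The FPKM ratio of IL1B was 0.564 to vector 1 alone, which is not past 2-fold, and 0.290 to vector 2 alone. In MRCKβ KO, 0 of 3 were past it, against 1.19% of 12320 genes, with log2 ratios of -0.02 for IL1B, -0.47 for IL11 and -0.27 for LIF. In DKO, 1 of 4 was past it, LTB, and 0.577% of 11955 genes were. LTB reached 10 counts only in DKO, the group where it is high, so nothing is read from that count. IL1B had a log2 ratio of 0.80 there. Only IL1B, IL11 and LIF were kept in all 3 comparisons.

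Of 15 measured genes for the receptors of these ligands, 11 were tested and 0 were called in DKO (1 higher and 0 lower at an unadjusted p under 0.05, where 1.36% of all tested genes were higher), with a median log2 fold change of 0.08. The 1 gene was CSF2RB, which was tested only because of its counts in DKO. Both DKO libraries lay above both vector libraries in 3, CSF2RB among them, against 17.0% of all tested genes, and below both in 0. IL6ST, the shared subunit for IL-6, IL-11 and LIF, was the most abundant, at an FPKM of 51.6 and 57.7 in vector, 61.3 and 61.2 in DKO, then 57.5 in MRCKα KO and 55.1 in MRCKβ KO. LTBR, the receptor for lymphotoxin β, had 32.6 to 49.6 FPKM over the 6 libraries. The ligand-binding subunits were far lower, with 1.21 to 3.21 FPKM for IL1R1 and IL6R, 5.02 to 7.76 for LIFR and 0.79 to 1.75 for IL11RA. The log2 fold change of IL6ST in DKO was 0.14 (SE 0.12; 0.07 without vector 1 and 0.22 without vector 2), and that of IL11RA was 0.53 (SE 0.48; 0.21 without DKO 1 and 0.79 without DKO 2). IL1RAP lay at 6.23 to 7.73 FPKM, CSF2RA at 2.91 to 7.76 and the decoy receptor TNFRSF6B at 2.29 to 5.61. IL20RB, IL20RA, IL22RA1, IL1R2 and TNFRSF25 had at most 14 counts in any library. Each of the 8 other tested receptors turned sign when 1 library was left out. The log2 fold changes were -0.21 for LIFR (0.11 without vector 1), 0.22 for IL6R (-0.25 without DKO 1), 0.16 for LTBR (-0.01 without DKO 1) and 0.08 for IL1RAP (-0.03 without DKO 1). They were -0.05 for CSF2RA (0.29 without vector 1 and 0.50 without DKO 2), 0.02 for IL1R1 (-0.18 without vector 2 and -0.29 without DKO 1), -0.01 for TNFRSF6B (0.20 without vector 2 and 0.29 without DKO 1) and, at low counts, -0.63 for IL20RB (0.04 without DKO 2). The cells thus held transcripts for both the ligand and the receptor of the IL-6 group, while TNFRSF25, the receptor of TL1A, had at most 3 counts.

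CSF2RB, the signalling subunit for GM-CSF, had 5 and 3 counts in vector, 27 and 18 in DKO, then 24 in MRCKα KO and 11 in MRCKβ KO. All knockout libraries lay above both vector libraries, at low counts. CSF2RB passed the filter on low counts only through DKO, and its fitted fold change is not given.

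The list of NF-κB, AP-1 and C/EBP factor genes held 17 genes, all tested, of which 0 were called. A positive log2 fold change was seen in 15, where the median over all tested genes was -0.0024. At an unadjusted p under 0.05, 4 were higher and 0 lower, against 1.36% of all tested genes higher, and 9 had both DKO libraries above both vector libraries, against 17.0%. The median log2 fold change was 0.30. This list and the other lists were chosen with earlier results of these data known, so nothing is read from their counts. TNFAIP3, an NF-κB target whose product A20 dampens the same pathway, had an FPKM of 1.74 and 2.47 in vector, 5.41 and 8.56 in DKO, then 4.32 in MRCKα KO and 3.11 in MRCKβ KO. Every knockout library was above both vector libraries, and DKO was highest. Its log2 fold change in DKO was 1.73 with an SE of 0.29 (1.36 without DKO 2 to 2.02 without DKO 1), and it was called by DESeq2 and by edgeR with the replicate block, though not by the edgeR fit used here.

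RELB, a subunit of the noncanonical NF-κB dimer, had an FPKM of 4.23 and 7.52 in vector, 7.10 in both single KO libraries, and 9.23 and 16.0 in DKO. Like IL24 and IL1A, it was lowest in vector 1 and highest in DKO 2. JUNB had 28.0 and 22.1 FPKM in vector, 37.3 and 44.4 in DKO, then 30.7 in MRCKα KO and 40.3 in MRCKβ KO. NFKBIZ had 2.09 and 3.10 in vector, 3.16 and 3.23 in the single knockouts, and 3.73 and 3.87 in DKO. The log2 fold changes in DKO were 1.08 for RELB, 0.68 for JUNB and 0.56 for NFKBIZ, with SEs of 0.37, 0.17 and 0.26. With 1 library left out they ran from 0.63 (DKO 2) to 1.57 (vector 2) for RELB, from 0.53 (vector 2) to 0.86 (vector 1) for JUNB and from 0.29 (vector 1) to 0.88 (vector 2) for NFKBIZ.

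**Figure D3:**
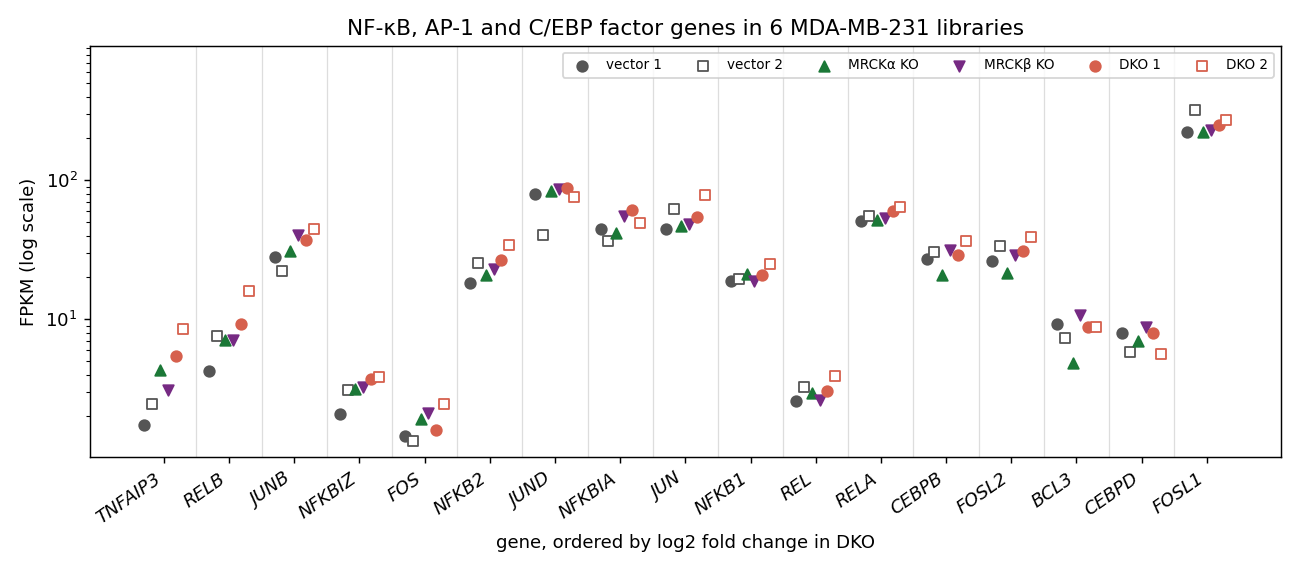
FPKM (log scale) of the 17 NF-κB, AP-1 and C/EBP factor genes, ordered by log2 fold change of DKO over vector, with 1 point per library. TNFAIP3 and RELB, on the left, reach their highest values in DKO 2 (8.56 and 16.0).

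Among 10 genes for cytokine mRNA stability, 0 were called and 3 were higher at an unadjusted p under 0.05, against 1.36% of all tested genes. Both DKO libraries lay above both vector libraries in 6, against 17.0% of all tested genes, and below both in 1, against 12.3%. The median log2 fold change was 0.13. For the same reason, nothing is read from these counts. ZFP36, whose product tristetraprolin binds AU-rich elements of cytokine transcripts and speeds their decay, had 10.9 and 12.1 FPKM in vector, 16.1 and 17.3 in DKO, then 11.3 in MRCKα KO and 13.9 in MRCKβ KO. ZC3H12A, which encodes the RNase regnase, had 1.98 to 2.77 FPKM outside DKO and 2.64 and 3.30 in DKO. The log2 fold changes in DKO were 0.52 for ZFP36, 0.44 for ZC3H12A, 0.38 for KHSRP and 0.27 for ELAVL1. That of ZC3H12A was 0.28 without DKO 2 and that of KHSRP 0.22 without vector 2.

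Genes that process or oppose interleukin 1 showed no common direction, with 0 of 8 tested genes called, 0 at an unadjusted p under 0.05, 1 with both DKO libraries above both vector libraries (17.0% of all tested genes), and a median log2 fold change of -0.02. CASP1, which cleaves the IL-1β precursor, had 5.55 and 4.08 FPKM in vector, 4.35 and 1.92 in DKO, then 3.83 in MRCKα KO and 3.75 in MRCKβ KO. DKO 1 lay between the vector libraries and DKO 2 below them. The log2 fold change of CASP1 was -0.60 (SE 0.46; -0.12 without DKO 2 and -1.35 without DKO 1). CAPN2, a calpain subunit, lay at 173 to 304 FPKM and NLRP3 at 2.64 to 5.71, both overlapping between DKO and vector, with log2 fold changes of -0.29 and 0.27 that turned sign, to 0.02 without vector 1 and to -0.09 without DKO 2. NLRP1 had 4.50 and 4.48 FPKM in vector, and 5.33 and 5.01 in DKO, a log2 fold change of 0.20. Of 20 tested genes that signal below the receptors, 0 were called and 2 were higher at an unadjusted p under 0.05, against 1.36% of all tested genes, with a median of 0.06. Both DKO libraries lay above both vector libraries in 4, against 17.0%, and below both in 1, against 12.3%. IRAK2, a kinase downstream of interleukin 1 receptors, had 3.46 and 3.68 FPKM in vector, 4.32 and 4.42 in the single knockouts, and 5.39 and 4.73 in DKO. The log2 fold changes were 0.48 for IRAK2, 0.50 for TYK2 and 0.58 for STAT5A, and that of SOCS2, which overlapped between DKO and vector, was -0.35. Without 1 library, TYK2 ran from 0.28 (vector 2) to 0.75 (vector 1), STAT5A from 0.38 (DKO 1) to 0.75 (DKO 2) and SOCS2 from -0.89 (DKO 1) through 0.04 (DKO 2) to 0.38 (vector 1).

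Related ligands outside the list were described in the same way. Of the other interleukin 1, 6 and 10 family ligands, 6 were tested, and 0 were called or passed an unadjusted p of 0.05. A positive log2 fold change was seen in 2 of 6, with a median of -0.05, against -0.0024 over all tested genes. IL18, another ligand of the interleukin 1 family, had 30.8 and 16.4 FPKM in vector, 35.6 and 10.9 in DKO, then 67.1 in MRCKα KO and 31.6 in MRCKβ KO. IL18 was thus high in MRCKα KO, where IL1B was low, and its DKO libraries overlapped vector. CLCF1 lay at 11.3 to 20.5 FPKM and CTF1 at 3.49 to 4.65. Their log2 fold changes turned sign as well and were -0.04 for IL18 (0.48 without vector 1 and 0.57 without DKO 2), -0.22 for CLCF1 (0.05 without vector 2) and 0.09 for CTF1 (-0.10 without vector 2). Among other interleukins and colony-stimulating factors, 0 of 10 tested genes were called, 1 was higher at an unadjusted p under 0.05, against 1.36% of all tested genes, and 4 had both DKO libraries above both vector libraries, against 17.0%. Their median log2 fold change was 0.37. The gene at an unadjusted p under 0.05 was IL15, with 18.4 and 11.95 FPKM in vector, 25.02 and 33.8 in DKO, then 25.3 in MRCKα KO and 16.9 in MRCKβ KO, a log2 fold change of 0.93 with an SE of 0.25. IL32 had 1.05 and 7.30 FPKM in vector, 5.84 and 14.1 in DKO, then 4.66 in MRCKα KO and 5.36 in MRCKβ KO, so that DKO 1 lay below vector 2. Its log2 fold change was 1.22 (SE 0.80; 0.42 without vector 1 and 3.17 without vector 2). CSF1 lay at 33.2 to 64.6 FPKM with a log2 fold change of -0.36, which was 0.06 without vector 1, and FLT3LG had a log2 fold change of 0.73. Of 7 other TNF-superfamily ligands tested, 0 were called and 0 passed an unadjusted p of 0.05, and 1 had both DKO libraries above both vector libraries, against 17.0% of all tested genes. Their median log2 fold change was 0.09. TNFSF12 lay at 13.0 to 15.6 FPKM, CD70 at 2.71 to 3.92, TNFSF13 at 2.10 to 5.15 and TNFSF4 at 0.39 to 0.84. The log2 fold changes were 0.09 for TNFSF12 (0.01 without vector 2), -0.26 for CD70 (-0.09 without vector 1), 0.60 for TNFSF13 (0.27 without DKO 1) and -0.22 for TNFSF4 (0.41 without vector 1).

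The mean profile over the 6 libraries of the 7 genes with at least 50 counts on average was lowest in vector 1 and highest in DKO 2, with standardized values of -0.92 and 0.91. It stood at 0.30 in vector 2 and 0.33 in DKO 1, with -0.44 in MRCKα KO and -0.19 in MRCKβ KO, so vector 2 was level with DKO 1. Among 11048 other genes, the 5 with the highest Pearson correlation to this profile were LRWD1, WDR55, RAB3IL1, MAPK8IP1 and NFKB2, with r between 0.987 and 0.994 over 6 libraries. Without MRCKα KO, r was 0.986 to 0.995 over 5 libraries. The highest r among so many genes over 6 libraries is high by selection, and it is given as a description. NFKB2, an NF-κB subunit gene of the factor list, had 18.3 and 25.3 FPKM in vector, 26.6 and 34.1 in DKO, then 20.7 in MRCKα KO and 22.8 in MRCKβ KO. Its log2 fold change in DKO was 0.48 (SE 0.20; 0.26 without vector 1, 0.31 without DKO 2 and 0.75 without vector 2).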

How the data were processed

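RNA of MDA-MB-231 cells was measured in 6 libraries, 2 of vector, 2 of DKO and 1 of each single knockout, grouped by the labels. The authors had single-end reads sequenced and processed by BGI, and the submitters' processing notes name Bowtie2, HISAT, RSEM and GRCh38.p11, with no versions. Expected counts, as deposited, estimate the reads of each gene without normalization and need not be whole. The deposited FPKM values were scaled by the authors' pipeline to transcript length and library total and are rounded to 2 decimals. Reads of 1 gene spread over transcripts of different lengths move FPKM and counts apart, as for IL6.

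Expected counts were rounded, and DKO was tested against vector on 4 libraries with edgeR 4.0.16 (R 4.3.3; filterByExpr, TMM factors, glmQLFit and glmQLFTest, Benjamini-Hochberg adjustment over all tested genes, threshold 0.05). P-values measure the spread between these 2 transductions and 2 guide sets. SE is the log2 fold change over the square root of the F statistic. Single knockouts have 1 library and no test. For these, the ratio to the vector mean of FPKM + 0.1 was used on genes with at least 10 counts in a library, together with exact 95% binomial intervals for pairs of libraries (scipy 1.17.1). At 0 counts, up to 3 cannot be told from none, and intervals cover counting error only. The edgeR fit used was tested on simulated data, whose spread was set beforehand and not taken from these libraries.

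Alternatives were DESeq2 1.42.0, limma 3.58.1 on log2 FPKM with a pseudocount of 0.1 or 1 (mean FPKM of at least 0.5), other scalings and filters, a replicate block, all 6 libraries in 1 fit, and each replicate left out. The members and the lists were chosen with earlier results of these data known. Named genes are the 10 members, the receptors, up to 4 genes of each other list with at least 50 counts on average and the largest fold change in DKO, the 5 genes most like the members, CDC42BPA and CDC42BPB. Fold changes are printed for all tested genes named from the lists, other than CSF2RB; those of NFKB2 and of genes whose DKO and vector libraries overlap were added after their values were seen. Genes called by other fits were named after their values were seen.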

Additional observations from a re-analysis of the deposited data

Results flagged for a closer look

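IL1B had an FPKM of 2.60 in MRCKα KO, below both vector libraries, while both DKO libraries were above them. CSF2 had 1.87 in MRCKα KO, below both vector libraries, while MRCKβ KO and both DKO libraries were above them. The distances were small in part. IL1B in DKO 1 was within counting error of vector 2, with a count ratio of 1.01 (95% exact interval 0.794 to 1.29). CSF2 was within counting error of vector 1 in MRCKα KO, with a ratio of 0.812 (0.384 to 1.69), and of vector 2 in MRCKβ KO and DKO 1, with ratios of 1.20 (0.787 to 1.84) and 1.45 (0.968 to 2.19). The difference between the knockouts was not tested, since MRCKα KO has 1 library, and that library also held the CDKN2A counts given in the report, whose part in these levels was not tested.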

How the results depend on the processing

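The limits of these data are the 2 libraries in each replicated group, the 1 library of each single knockout and the distance between the vector libraries. Low counts limit LTB, CSF3, CSF2 and IL1A. Of 116 alternative values for the fold changes of the tested members, 108 kept their direction and stayed above the threshold of 0.05, 7 changed sign and 1 passed the threshold.

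In DKO, DESeq2 called 4 genes (ICAM1, TNFAIP3, RPS10-NUDT3 and TNFAIP8L2-SCNM1), of which 1 is in the other lists, against 0 in the fit used. The replicate block called 5 genes (CXCL8, ICAM1, IL24, CXCL1 and TNFAIP3), of which 1 is in the other lists and 1 is a member, IL24, with a log2 fold change of 1.31. It changed no other call among the members at an adjusted p under 0.05. The replicate numbers are not said to mark a shared batch. Across 13123 genes the differences between library 1 and library 2 in vector and in DKO had a correlation of 0.302. With 1 library left out, between 0 and 5 genes were called, none of them a member, and the lone library of a group is then assumed to vary like the other group. The cause of these differences was not tested.

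The log2 fold change of IL11 ran from -0.41 to 0.38 with 1 library left out and was 0.01 with limma at either pseudocount. That of LIF ran from -0.49 to 0.44, and that of TNFSF15 from -0.68 to 2.16.

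Of 501 alternative values for the fold changes of genes named from the other lists, 475 kept their direction and stayed above the threshold of 0.05, 24 changed sign and 2, both of TNFAIP3, passed the threshold. With 1 library left out, the range was -0.29 to 0.28 for IL1R1, -0.03 to 0.17 for IL1RAP, -0.25 to 0.57 for IL6R, -0.47 to 0.11 for LIFR, -1.93 to 0.04 for IL20RB, -0.93 to 0.50 for CSF2RA, -0.40 to 0.29 for TNFRSF6B, -0.01 to 0.31 for LTBR, -0.58 to 0.02 for CAPN2, -0.09 to 0.56 for NLRP3, -0.89 to 0.38 for SOCS2, -1.15 to 0.57 for IL18, -0.45 to 0.05 for CLCF1, -0.10 to 0.32 for CTF1, -0.68 to 0.06 for CSF1 and -0.66 to 0.41 for TNFSF4. IL1R1 was at -0.08 and -0.04 with limma at a pseudocount of 0.1 and 1, and TNFRSF6B at 0.01 with library totals only.

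Counts by the fold rule depended on its settings. Genes past 2-fold in MRCKα KO numbered 257, 44 with pseudocount 1, 509 with no filter on replicate agreement, 565 with no filter on low counts, and 652 to 793 against 1 vector library alone. Members past 2-fold in MRCKα KO numbered 1, 2 with no filter on low counts, and 2 to 4 against 1 vector library alone. IL1B, the gene of the first count, was not past 2-fold against vector 1 alone. Genes past 2-fold in MRCKβ KO numbered 147, 10 with pseudocount 1, 252 with pseudocount 0.01, 357 with no filter on replicate agreement, 375 with no filter on low counts, and 408 to 815 against 1 vector library alone. Members past 2-fold in MRCKβ KO numbered 0, 1 with no filter on replicate agreement, 1 with no filter on low counts, and 2 to 3 against 1 vector library alone. Genes past 2-fold in DKO numbered 69, 10 with pseudocount 1, 122 with pseudocount 0.01, 290 with no filter on replicate agreement, 117 with no filter on low counts, and 306 to 310 against 1 vector library alone. Members past 2-fold in DKO numbered 1, 4 with no filter on replicate agreement, and 2 to 4 against 1 vector library alone. The cause was not tested.

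The number of genes with both DKO libraries above both vector libraries stayed within 1.5 times its value of 2226.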
